A study of Mus musculus with 8 samples.

Results

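The cholesterol and fatty acid synthesis genes described here are 28 named genes of the mevalonate pathway, the later sterol steps, the sterol-sensing machinery and fatty acid synthesis, out of 21631 protein-coding genes on chromosomes 1 to 19 and X. They were picked by symbol in the mm10 annotation, and all 28 were found. A gene was counted at a dose when a listed region came within 1 kb of either gene end, and, as a wider window, when a region lay in the gene body or up to 10 kb outside it. In the mouse hepatoma line Hepa-1c1c7, an established cell line, open chromatin was profiled by ATAC-seq, in which a transposase inserts sequencing adapters where DNA is exposed. The groups were untreated cells (0 µM) and cells given potassium chromate, a form of hexavalent chromium, at 0.1, 0.5 or 1 µM for 72 h, each with 2 libraries, 8 in all. Separate cultures for the libraries of a group are not named in the labels.

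Cholesterol is built from acetyl-CoA, which is condensed to mevalonate, converted to isoprenoid units, joined to squalene and closed to lanosterol, which is then trimmed to cholesterol. Fatty acid synthesis draws on the same acetyl-CoA, which is carboxylated, extended to palmitate, and then elongated and desaturated. Both branches are switched on by SREBP transcription factors. These are held in the endoplasmic reticulum by SCAP and the INSIG proteins while sterols are plentiful, and are released to the nucleus when sterols fall. SREBPs bind sterol regulatory elements in promoters, usually with NF-Y or SP1 bound close by. The liver is a main site of both pathways.

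The data are 1 list of regions per treated dose, whose name sets that dose against the untreated cells, so values have no replicate error and no test between doses was possible. Neither the labels nor the lists say whether a listed region was more open than in untreated cells, and a gene without a region is not shown to be closed. The lists held 14401, 11130 and 15894 regions at 0.1, 0.5 and 1 µM, and read depth is unknown. The same untreated group is named in all lists, which are therefore not taken as independent, and the 1 µM libraries carry another label prefix (N503) than the rest (N502), which cannot be told apart from dose. Each region has a deposited score of unstated scale, used here as a percentile within its list (higher means a higher score). Raw scores are printed for a few regions as deposited and are not compared between doses. Of regions matched between lists, 15.8% to 20.7% of those 1000 bp or wider differed in score by more than 4 times, against 2.71% to 3.17% of narrower ones. Of 10 hepatocyte markers, Apoa2 and Foxa2 had a gene-end region at every dose and the other 8, Alb among them, had none. Of 8 markers of other cell types, Snap25 alone had one at a gene end, at 0.1 µM. Over all protein-coding genes, 19.5%, 18.7% and 23.0% had a gene-end region in order of dose, and 14.2% had one at every dose. In the wider window 3, 2 and 5 of the 10 hepatocyte markers and 3, 2 and 5 of the 8 others held a region in order of dose. The shares of all genes in that window were 31.7%, 30.2% and 36.8%.

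Promoters of genes with a region over a start at every dose are shown first. In 7 genes a region covered an annotated start at every dose. Ordered by the presence of a sterol element and then by score percentile, the leading 5 are printed, and Insig2 and Nsdhl came after them. Each line gives the 250 bases before the start on the gene's own strand, from RefSeq (GRCm38.p6, the assembly of mm10). Capitals mark matches to the sterol element (TCACNCCAC, or its shorter form TCACNCCA), the NF-Y box (CCAAT, read as ATTGG on the other strand), the E-box (CACGTG), AP-1 (TGANTCA) and a CTCF consensus, all searched on both strands.
Hmgcs1, chr13:119690101-119690350, plus strand: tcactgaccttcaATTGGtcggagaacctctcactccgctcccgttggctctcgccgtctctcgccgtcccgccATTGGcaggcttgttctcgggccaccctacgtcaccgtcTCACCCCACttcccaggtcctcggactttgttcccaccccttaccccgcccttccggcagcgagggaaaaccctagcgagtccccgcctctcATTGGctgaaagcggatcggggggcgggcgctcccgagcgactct
Msmo1, chr8:64733579-64733828, minus strand: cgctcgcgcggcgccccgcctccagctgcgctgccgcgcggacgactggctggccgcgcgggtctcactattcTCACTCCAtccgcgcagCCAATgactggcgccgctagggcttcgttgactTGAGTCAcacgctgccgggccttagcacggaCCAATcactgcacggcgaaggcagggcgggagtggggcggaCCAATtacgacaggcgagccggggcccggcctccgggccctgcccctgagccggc
Hsd17b7, chr1:169969206-169969455, minus strand: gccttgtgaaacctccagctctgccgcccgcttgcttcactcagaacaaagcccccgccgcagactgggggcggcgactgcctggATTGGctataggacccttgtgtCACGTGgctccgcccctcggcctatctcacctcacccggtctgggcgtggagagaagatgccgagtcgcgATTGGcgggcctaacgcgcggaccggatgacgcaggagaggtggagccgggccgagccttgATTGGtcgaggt
Idi1, chr13:8885356-8885605, plus strand: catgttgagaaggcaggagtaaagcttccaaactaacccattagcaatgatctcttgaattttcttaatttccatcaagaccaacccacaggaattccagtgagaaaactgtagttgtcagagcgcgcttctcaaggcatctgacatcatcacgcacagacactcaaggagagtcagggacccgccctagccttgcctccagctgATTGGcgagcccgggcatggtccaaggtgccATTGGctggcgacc
Elovl6, chr3:129532136-129532385, plus strand: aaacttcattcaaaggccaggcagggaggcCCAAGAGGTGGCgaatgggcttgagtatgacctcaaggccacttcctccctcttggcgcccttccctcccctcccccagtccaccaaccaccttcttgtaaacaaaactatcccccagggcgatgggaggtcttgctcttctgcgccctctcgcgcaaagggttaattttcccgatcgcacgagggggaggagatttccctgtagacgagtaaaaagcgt

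Hmgcs1 has the full sterol element TCACCCCAC, which begins 137 bases before the start. Msmo1 has the shorter form as TCACTCCA, 177 bases before its start, with 3 NF-Y boxes downstream of it and an AP-1 match, TGAGTCA, between them. Hsd17b7 has 3 NF-Y boxes and an E-box, Idi1 has 2 NF-Y boxes close to the start, and Elovl6 has none, with a CTCF match, CCAAGAGGTGGC, 220 bases before the start.

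Regions lay at an end of 11 of the 28 genes at 0.1 µM, 14 at 0.5 µM and 17 at 1 µM, which is 39.3%, 50% and 60.7% of them. Over all protein-coding genes the shares were 19.5%, 18.7% and 23.0%. In all, 20 of the 28 genes had a gene-end region at 1 or more doses (26.8% of all genes did), 8 at every dose (14.2%), 6 at 2 doses (6.03%) and 6 at 1 dose (6.60%). The 8 genes at every dose were Hmgcs1, Idi1, Msmo1, Nsdhl, Hsd17b7, Dhcr7, Srebf2 and Elovl6. The number of genes was highest at 1 µM, where the list was also longest. With each list shortened by score to 11130 regions the counts were 10, 14 and 13, against 16.4%, 18.7% and 18.1% of all genes. The order of the doses thus moved with list length, both in the 28 genes and over all genes. The rule's edge was sparsely filled: Fasn at 1 µM was counted with a region 970 bp from its end, and a region of Elovl6 at 0.1 µM stood outside at 1157 bp.

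**Figure D1:**
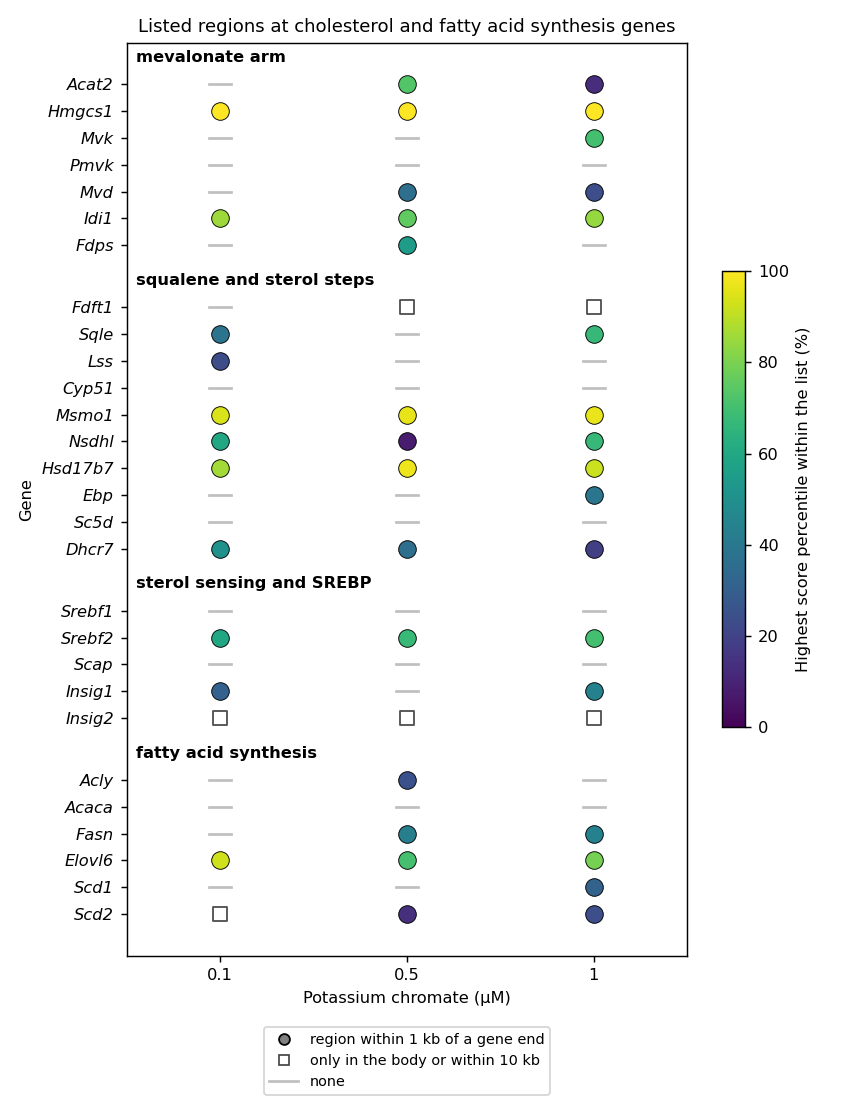
Listed regions at each of the 28 genes (rows, ordered by role) at each chromate dose (columns, µM). Filled circles are regions within 1 kb of a gene end, coloured by the highest score percentile within the list, open squares are regions only in the body or within 10 kb, and dashes mean none. Circles fill every column for 8 genes, and 6 genes have dashes throughout.

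With the gene body and 10 kb either side, 13, 16 and 19 of the 28 genes held a region in order of dose (46.4%, 57.1% and 67.9%), against 31.7%, 30.2% and 36.8% of all genes. The median length of the 28 genes, 18560 bp, was close to that of all genes, 17329 bp. Per 100 kb of these windows the 28 genes held 1.18, 1.58 and 1.64 regions, and all genes 0.856, 0.740 and 1.01. Scd2 was counted at 0.1 µM in this window only, with a region 9137 bp from its end. The nearest region of a gene without one in the window was 26.6 kb away, at Acat2 at 0.1 µM.

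**Figure D2:**
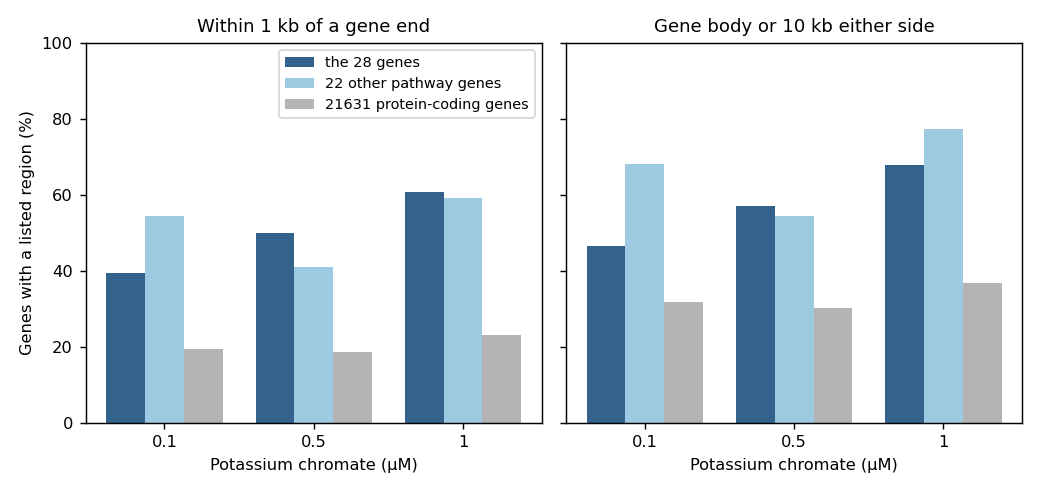
Share of genes with a listed region (%, bars from 0) at each chromate dose (µM), within 1 kb of a gene end (left) and in the body or 10 kb either side (right), for the 28 genes, 22 other pathway genes and all 21631 protein-coding genes. The bars of the 28 genes stand at 39.3%, 50% and 60.7% on the left, above 19.5%, 18.7% and 23.0% for all genes.

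Gene-end regions lay on the start side of these genes, as they did in nearly all other genes. Start and strand come from the RefSeq promoter table, which held 23 of the 28 genes, with 31 starts, and Fdps, Fdft1, Sqle, Scd1 and Scd2 are placed by gene end alone. Among the 23, all genes with a gene-end region had it at the start side: 10 of 10, 12 of 12 and 14 of 14 in order of dose. Over all genes 96.4%, 95.6% and 95.7% of those with a gene-end region had it there. The annotated start itself lay under a region in 9, 12 and 10 of the 23 genes, against 16.2%, 15.1% and 19.3% of 17274 genes with a known start. Hmgcs1 was the exception at the far end: at 1 µM a further region of 310 bp covered the last bases of the gene (percentile 60.3), in addition to the one at its start.

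**Figure D3:**
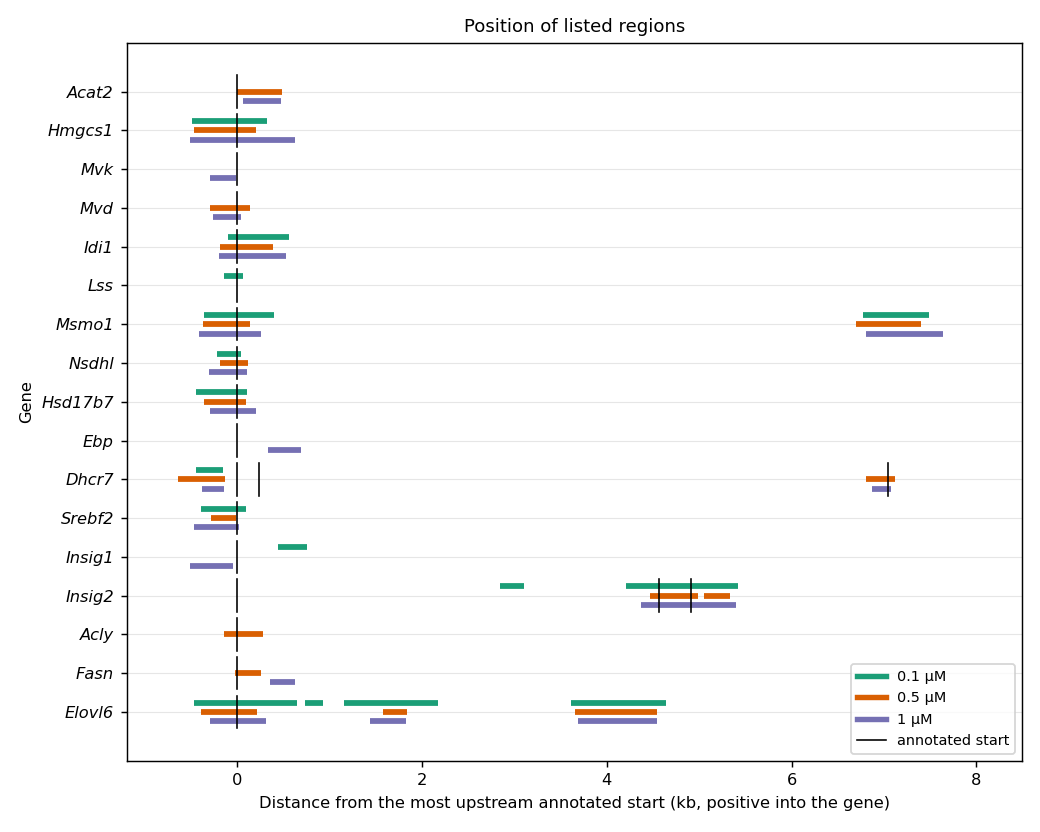
Listed regions of the 17 genes with a known start and a region, drawn as bars by distance from the most upstream annotated start (kb), with 1 row per gene and 1 colour per dose. Vertical ticks are annotated starts. Of the 54 regions, 26 lie across the tick at 0. Msmo1 and Elovl6 have bars both there and further inside the gene, Insig2 has bars inside the gene only, Dhcr7 has bars before the tick and inside the gene, and the far-end region of Hmgcs1 lies outside the plotted range.

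In the mevalonate arm, 2, 5 and 5 of 7 genes (28.6%, 71.4% and 71.4%) had a gene-end region in order of dose. The shares over all genes were 19.5%, 18.7% and 23.0%. Hmgcs1, the cytosolic HMG-CoA synthase that commits acetyl-CoA units to the pathway, had the highest-ranked gene-end region of the 28 genes at every dose. It ran from -494 to 317 bp around the start at 0.1 µM (score 156), from -473 to 204 bp at 0.5 µM (score 122) and from -512 to 626 bp at 1 µM (score 234). These scores ranked 38 of 14401, 29 of 11130 and 22 of 15894, so the region belonged to the top 1% at each dose. The sterol element printed above, 137 bases before the start, lies inside it at every dose.

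Idi1, the isomerase that interconverts the isoprenoid building blocks, was the other gene of this arm with a region at every dose. Its regions spanned -105 to 556 bp at 0.1 µM, -191 to 389 bp at 0.5 µM and -201 to 529 bp at 1 µM, with percentiles of 85.2, 75.6 and 84.2. They reached further into the gene than upstream of it at each dose, and both NF-Y boxes of the printed promoter fall within them.

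Of the rest of the arm, Acat2, Mvd, Mvk and Fdps had regions only at 0.5 or 1 µM. Acat2, the cytosolic thiolase that makes acetoacetyl-CoA, had a region at 0.5 µM (chr17:12960246-12960727, percentile 73.0) and at 1 µM (percentile 13.2), which began at -2 and 59 bp from the start. Mvd, the decarboxylase that makes isopentenyl diphosphate, had regions over its start at 0.5 and 1 µM (percentiles 36.0 and 23.8). An end of 9330133O14Rik, a long noncoding RNA gene, is within 1 kb of the Mvd place. Gm15946, a pseudogene, has an end within 1 kb of the Acat2 place. Mvk, mevalonate kinase, had a region at 1 µM alone, from -294 to -20 bp (percentile 70.0), which also lies within 1 kb of an end of Mmab, a cobalamin enzyme gene. Fdps, farnesyl diphosphate synthase, had a region at 0.5 µM alone (chr3:89101930-89102232, percentile 54.8). Pmvk, phosphomevalonate kinase, had none in either window, and its nearest regions were 392, 42.6 and 35.8 kb away in order of dose.

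In the steps from squalene to cholesterol, 6, 4 and 6 of 10 genes had a gene-end region (60%, 40% and 60%), against 19.5%, 18.7% and 23.0% of all genes. Msmo1, a methylsterol oxidase that acts in removal of methyl groups from the sterol ring, had strongly ranked regions at 2 separate places, each at every dose. The region over its start, chr8:64733181-64733938 at 0.1 µM, had scores of 49, 44 and 75 and percentiles of 94.4, 96.1 and 96.5. The inner region, centred 7133, 7053 and 7221 bp into the gene, had scores of 48, 45 and 77 and percentiles of 94.1, 96.3 and 96.7. Both places ranked alike within each list, and no other annotated gene end lay within 1 kb of either.

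Hsd17b7, a sterol ketone reductase of the same demethylation complex, had a region over its start at every dose, from -450 to 103, -358 to 92 and -301 to 206 bp, with percentiles of 86.2, 97.3 and 92.0. A long noncoding RNA gene, 3110045C21Rik, has an end within 1 kb of it. Nsdhl, the sterol dehydrogenase of that complex, also had a region over its start at every dose (percentiles 59.6, 7.67 and 67.1), low in the 0.5 µM list. This place is within 1 kb of an end of Cetn2, a centriole protein gene, so it cannot be given to Nsdhl alone.

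Dhcr7, a reductase of the final steps to cholesterol, had a region just before its start at every dose, ending 156, 138 and 148 bp upstream (percentiles 50.3, 36.0 and 18.4). Nadsyn1, a gene of NAD synthesis, has an end within 1 kb of this place. Dhcr7 has 3 annotated starts, and the one 7047 bp into the gene lay under a further region at 0.5 and 1 µM (percentiles 25 and 6.05), with none there at 0.1 µM.

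Other sterol genes were listed at fewer doses. Sqle, squalene epoxidase, a rate-limiting step of the late pathway, had a region at 0.1 µM (chr15:59314901-59315244, percentile 38.2) and at 1 µM (699 bp wide, percentile 67.1), and at 0.5 µM its nearest region was 118 kb away. Lss, lanosterol synthase, had a region of 199 bp, the smallest width in the lists, over its start at 0.1 µM (percentile 22.8), and nothing nearer than 1166 and 767 kb at 0.5 and 1 µM. Ebp, a sterol isomerase, had a region at 1 µM, from 330 to 684 bp into the gene (percentile 39.1), within 1 kb of an end of Porcn, which encodes an acyltransferase for Wnt proteins. Fdft1, squalene synthase, had none at an end and a region inside the gene, 3524 bp from an end at 0.5 µM and 3516 bp at 1 µM (percentiles 73.0 and 43.4). Cyp51, the lanosterol demethylase, and Sc5d, a sterol desaturase, had none in either window. Their nearest regions at any dose were 219 kb and 1450 kb away.

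Among the genes of sterol sensing, 2, 1 and 2 of 5 had a gene-end region (40%, 20% and 40%). Over all genes these shares were 19.5%, 18.7% and 23.0%, so the count at 0.5 µM was near that of all genes. Srebf2, which encodes the SREBP protein that mainly drives cholesterol genes, had a region at every dose, from -399 to 97, -287 to -11 and -466 to 22 bp, with scores of 14, 14 and 20 and percentiles of 59.6, 67.3 and 70.0. Its promoter holds the short sterol element as TCACCCCA, 162 bases before the start, under the region at every dose. Srebf1, whose products mainly drive fatty acid genes, had none in either window at any of its 3 annotated starts, and its nearest regions were 951, 129 and 129 kb away. Srebf2 lies on chromosome 15, as does Sqle, and no other of the 28 genes does.

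Insig1 and Insig2 encode the proteins that retain SREBP in the endoplasmic reticulum. Insig1 had a region at 0.1 µM from 438 to 753 bp into the gene (percentile 30.7) and at 1 µM from -519 to -46 bp before it (percentile 43.4). These do not overlap, so the counts at 0.1 and 1 µM rest on different places. Insig2 had no region at a gene end, yet a region covered its 2 inner annotated starts, 4565 and 4911 bp into the gene, at every dose. It spanned 1209 bp at 0.1 µM (percentile 70.0), 523 bp at 0.5 µM (percentile 93.7) and 1031 bp at 1 µM (percentile 65.0). Low-ranked regions beside it were a 292 bp region at 0.5 µM (percentile 2.59) and a 262 bp region at 0.1 µM (percentile 6.48). The broad regions at 0.1 and 1 µM fall in the class of 1000 bp or more, whose score ratios departed most often from the median. The most upstream start of Insig2 had no region, and so the count by gene end leaves the gene out. Scap, the escort protein of SREBP, had none in either window, with the nearest region 269 kb away at 1 µM.

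Among fatty acid genes, 1, 4 and 4 of 6 had a gene-end region (16.7%, 66.7% and 66.7%). Over all genes these shares were 19.5%, 18.7% and 23.0%, so the count at 0.1 µM was near that of all genes. Elovl6, which elongates palmitate, was the gene listed at every dose, and it held regions at more separate places than any other of the 28 apart from Scd2, with 4 each. The region over its start spanned -470 to 645, -393 to 211 and -294 to 308 bp (percentiles 92.8, 70.4 and 79.2). A weaker place centred 1662, 1706 and 1631 bp into the gene had percentiles of 55.2, 7.67 and 51.1. The strongest place of the gene was neither of these but one centred 4126, 4098 and 4118 bp into it, with scores of 72, 73 and 109 and percentiles of 97.6, 98.9 and 98.4. At 0.1 µM a region of 199 bp was also listed 733 bp from the start. The regions at these 3 recurring places were 1116, 1011 and 1023 bp wide at 0.1 µM. They were narrower at 0.5 µM (605, 265 and 896 bp) and at 1 µM (603, 387 and 853 bp). An end of Gm35986, a long noncoding RNA gene, is within 1 kb of the start region.

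Scd1 and Scd2 encode neighbouring stearoyl-CoA desaturases, which place a double bond in saturated fatty acids. Scd2 had a gene-end region at 0.5 µM (chr19:44293788-44293986, percentile 13.8) and at 1 µM (chr19:44293676-44294155, percentile 23.8), both low in their lists. A more highly ranked place outside the gene, 9137, 9149 and 9149 bp from it (chr19:44284205-44284539 at 0.1 µM), was listed at every dose with percentiles of 72.3, 92.7 and 81.4, and lies within 1 kb of an end of Gm41853, a long noncoding RNA gene. The 0.5 µM list held a further pair of regions around Scd2, 8800 and 7586 bp outside it (percentiles 59.5 and 25). Scd1 had a region at 1 µM alone, 516 bp outside the gene (percentile 31.6).

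Fasn, fatty acid synthase, had a region over its annotated start at 0.5 µM, from -23 to 257 bp (percentile 42.9), and at 1 µM a separate one from 351 to 620 bp (percentile 43.4). Acly, ATP citrate lyase, which supplies cytosolic acetyl-CoA, had a region over its start at 0.5 µM alone (percentile 25). Acaca, acetyl-CoA carboxylase, the committed step of the pathway, is the longest of the 28 genes at 272017 bp, and had no region in its body or 10 kb around it. Its nearest regions were 838, 857 and 656 kb away.

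Merged over doses, the gene-end regions of the 28 genes formed 24 places, of which 8 (33.3%) were listed at every dose, 4 at 2 doses and 12 at 1 dose. Over all protein-coding genes, 46.7% of 5805 gene-end places were listed at every dose and 32.2% at 1 dose. The 8 genes with a region at every dose had it at the same place each time. A further 10 places lay away from gene ends, 5 of them listed at every dose: 2 in Elovl6 and 1 each at Msmo1, Insig2 and Scd2. At 4 of the 24 gene-end places (Dhcr7, Ebp, Mvk and Nsdhl) the end of another protein-coding gene was within 1 kb.

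**Figure D4:**
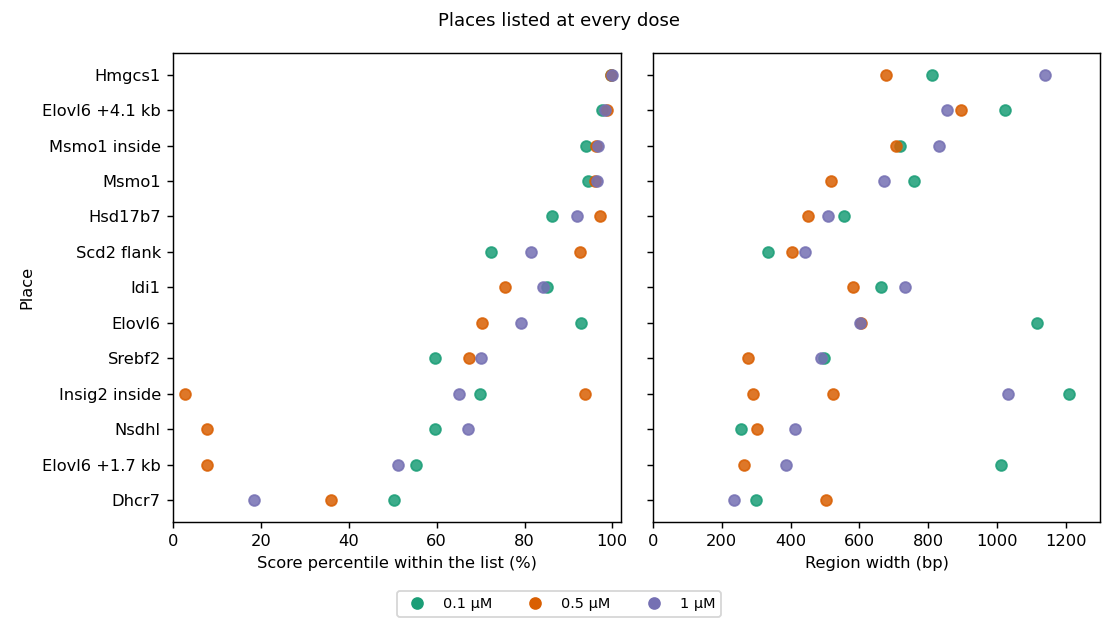
Score percentile within the list (%, left) and width (bp, right) of the regions at the 13 places listed at every dose, with 1 point per region and 1 colour per dose, ordered by mean percentile. The start of Hmgcs1 stands above 99 at each dose, and Nsdhl, Insig2 and the weaker inner place of Elovl6 each have a 0.5 µM point below 10.

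As a group, the gene-end regions ranked near other gene-end regions. Their median percentile was 59.6 at 0.1 µM (12 regions, range 15 to 99.7), 61.0 at 0.5 µM (14 regions, 7.67 to 99.7) and 63.7 at 1 µM (18 regions, 13.2 to 99.9). For all gene-end regions the medians were 55.2, 54.8 and 57.4. Median widths were 420.5, 445.5 and 443.5 bp, against 422, 377 and 431.5 bp for all gene-end regions. The spread among the 28 genes was thus wide, from Hmgcs1 near the top of each list to Acat2 and Nsdhl near the bottom of 1 list each.

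Promoters were searched in the window from 250 bases before to 50 after each start, a total of 300 bases. The full sterol element occurred in 1 of the 31 promoters, that of Hmgcs1, and in 1.20% of all 21045 promoters. Its short form occurred in Hmgcs1, Msmo1 and Srebf2 (3 of 31, 4.09% of all), and these 3 genes had a gene-end region at every dose. Over all genes the short form was no more frequent with a gene-end region (4.04%) than without (4.97%), and the full form stood at 1.28% and 1.48%. The short form overlaps the full one, so Hmgcs1 counts under both. The NF-Y box occurred in 19 of the 23 genes (82.6%) against 42.7% of all genes. It was present in 14 of the 16 genes with a gene-end region at any dose and in 5 of the 7 without, where the shares over all genes were 47.6% and 40.9%. Mvk had 5 matches to it, with a region at 1 µM alone, and Cyp51, Pmvk, Sc5d and Srebf1 had it with no region. The SP1 box (GGGCGG) occurred in 19 of the 23 genes, against 49.8% of all genes. It was in 14 of the 16 genes with a gene-end region and 5 of the 7 without, where the shares over all genes were 70.5% and 42.1%. The E-box occurred in 5 of 23, against 9.02%.

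The title of the series points to CTCF sites in promoters. The CTCF motif occurred in Elovl6 and Scap, 2 of the 23 genes, against 2.78% of all genes. In Scap the match is CCACCAGGGGGC, 35 bases before the most upstream start, and no region was listed there at any dose. In Elovl6 the match lies under the region over the start at every dose. AP-1 matches occurred in Dhcr7 and Msmo1 (2 of 23, against 8.19% of all genes), in Dhcr7 at the inner start that had a region at 0.5 and 1 µM. A match is a run of letters, not a shown binding site.

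Other genes of the same pathways, from a separate list of 22, gave counts of 12, 9 and 13 with a gene-end region in order of dose (54.5%, 40.9% and 59.1%, with the shares of all genes as above). Those at every dose were Aacs, Acsl1, Acss2, Fads2, Ggps1, Lbr, Mbtps1, Mbtps2 and Stard4. Mbtps1 and Mbtps2 encode the proteases that release SREBP. The region of Mbtps1 had percentiles of 80.1, 49.3 and 88.6, and that of Mbtps2 at the end listed at every dose 55.2, 59.5 and 70.0. At 1 µM Mbtps2 had a further region at that end (percentile 39.1), and at 0.1 µM one at its other end. The sterol transporter gene Stard4 had percentiles of 91.8, 42.9 and 89.9, and Ggps1, which makes geranylgeranyl diphosphate, 83.0, 91.0 and 18.4. Acsl1, which activates long-chain fatty acids, had 92.8, 49.3 and 80.3, and Lbr, a sterol reductase of the inner nuclear membrane, 59.6, 83.4 and 67.1. Acss2, cytosolic acetyl-CoA synthetase, had 0.934, 83.4 and 57.4, Aacs, acetoacetyl-CoA synthetase, 72.3, 42.9 and 51.1, and the desaturase gene Fads2 22.8, 25 and 43.4. This list was lowest at 0.5 µM, where the 28 genes stood between their counts at 0.1 and 1 µM, and that difference was not tested.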

How the data were processed

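ATAC-seq regions of Hepa-1c1c7 cells were analysed as 3 deposited lists, 1 per treated dose, each attached by the labels to both libraries of its dose. The tools Bowtie2, Picard and MACS2 and the build mm10 appear, with no role or version, in the submitters' processing notes. The deposited score of each region is a whole number of unstated scale, and the threshold, the use of the untreated libraries, the pooling of libraries, duplicate removal and the transposase read shift are not stated there or in the labels. Positions were made 1-based and compared with the RefSeq gene table and promoter table of GRCm38.p6 in Python 3.11.15 with pandas 2.3.3. A region counted when any base came within the window, and regions overlapping by 1 bp or more were merged into places. The window counts were tested on simulated regions around 200 genes. All 28 genes are accounted for, and those with a gene-end region in any list are named with it. Other pathway genes are named where listed at every dose. The genes, lists and motifs were chosen with earlier results of these data known, so counts are set beside those of all genes without a test.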

Additional observations from a re-analysis of the deposited data

How the results depend on the processing

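Of 49 alternative values, 42 stayed within 1.5 times the reported count or median, or within the binomial interval for shares of all genes, and 7 moved further. All 7 came from keeping 50% of each list, which by construction removes regions. With the higher-scoring part, gene-end counts were 7, 8 and 9 of 28 in order of dose (11.6%, 11.1% and 13.9% of all genes), and the count for the body and 10 kb at 1 µM was 11 (23.2% of all genes). With the wider part, gene-end counts were 7 at 0.1 µM and 9 at 0.5 µM (13.3% and 12.2% of all genes), and the count for the body and 10 kb at 0.1 µM was 8 (20.9%). Window sizes of 0.5 and 2.5 kb, region midpoints and annotated starts alone (known for 23 genes) gave 11, 13 to 14 and 15 to 17 genes. The shares of all genes at these settings were 18.2% to 21.9%, 17.5% to 21.1% and 21.5% to 25.7%. A reciprocal overlap of 50% left 7 of 8 places at every dose. No paired analysis was possible because there is 1 list per dose and no list per library, and for the same reason no library could be left out. Read depth is unknown.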
